A study of Mus musculus with 23 samples.

Results

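The Zic genes encode zinc-finger transcription factors related to the Gli proteins. 4 of them, Zic1, Zic2, Zic4 and Zic5, were examined in the H3K27ac and H3K27me3 ChIP-seq peak lists of early cortical cells, out of 21938 protein-coding genes in all. The rule names the genes and uses no measured value of them. For each gene, the peaks of the 8 lists were taken within 5 kb of the transcription start site (TSS) and across the gene pair with 100 kb on either side.

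Cells came from the cerebral cortex of embryos of the transgenic line Tg(Ebf2-EGFP)FB58Gsat, in which EGFP is driven by regulatory sequence of Ebf2, a gene of the first cortical neurons. All groups carried this transgene and were sorted by its fluorescence. Ebf2-EGFP+ cells were taken at E11.5, when per the study's methods they are mainly preplate neurons (Cajal-Retzius and subplate cells), then at E13.5, and finally at E15.5, when most are Cajal-Retzius cells. Ebf2-EGFP- cells, largely progenitors, were taken at E11.5 only. The sort follows a transgene and not a cell identity, so each group can hold other cells. The 23 samples formed 12 groups of 2 libraries each, except that H3K27ac in Ebf2-EGFP- cells had 1, and each of the 8 ChIP groups has 1 peak list. With 1 list per group there is no replicate error and no test, so each difference between lists below is a description. Depth is unknown, because the files hold no read counts.

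Cajal-Retzius cells reach the cortical surface from several sources at its edge. The medial ones, the cortical hem and the septum, use Zic genes, as do the meninges that cover the cortex. The genes lie in head-to-head pairs. H3K27ac is found at active promoters and enhancers, whereas H3K27me3 is laid down by Polycomb complexes at genes held silent. At developmental regulators both marks often sit on stretches rich in CpG, the dinucleotide that is rare elsewhere in the genome.

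The pairs lie on 2 chromosomes (mm10, GENCODE M21). Zic1 (ENSMUSG00000032368.14) is at chr9:91358058-91365810 on the minus strand, and Zic4 (ENSMUSG00000036972.14) at chr9:91362413-91389348 on the plus strand. The outermost Zic4 start lies inside Zic1, 3.40 kb from the Zic1 TSS, so the 2 genes share every peak counted at their starts and give 1 measurement, not 2. Zic5 (ENSMUSG00000041703.7) is at chr14:122456795-122465677 on the minus strand, and Zic2 (ENSMUSG00000061524.8) at chr14:122475435-122479852 on the plus strand, with 9.76 kb between their starts and no peak shared. A non-coding gene, 2610035F20Rik, starts 236 bp from the Zic2 TSS and its exon carries the peaks just upstream of Zic2.

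The sequences on which the lists met are printed for the Zic1/Zic4 and Zic5 sites, where the same short stretches were listed for both marks. Shared sites near Zic2 are not printed. The printed sequences are read 5′ to 3′ from GRCm38, the assembly behind mm10, on the plus strand, with each CpG in capitals. The first is chr9:91364791-91364920 in a coding exon of Zic1, the second chr9:91381665-91381803 in an intron of Zic4, and the third chr14:122464135-122464284 in a coding exon of Zic5.
Zic1 exon site: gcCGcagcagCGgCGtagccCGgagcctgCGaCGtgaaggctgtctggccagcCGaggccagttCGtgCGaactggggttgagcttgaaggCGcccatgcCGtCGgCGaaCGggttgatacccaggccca
Zic4 intron site: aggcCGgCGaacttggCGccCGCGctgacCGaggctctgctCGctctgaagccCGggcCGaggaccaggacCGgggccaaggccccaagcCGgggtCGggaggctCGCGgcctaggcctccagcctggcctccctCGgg
Zic5 exon site: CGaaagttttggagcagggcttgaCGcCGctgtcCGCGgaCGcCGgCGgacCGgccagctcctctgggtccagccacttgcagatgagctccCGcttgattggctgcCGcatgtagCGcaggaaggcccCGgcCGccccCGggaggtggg
The Zic1 exon site held 14 CpG in 130 bp at a GC content of 68.5%, the Zic4 intron site 15 in 139 bp at 76.3%, and the Zic5 exon site 15 in 150 bp at 70.0%. As many CpG or more were found in 13.8%, 13.3% and 15.3% of 32851 RefSeq promoters, counted over stretches of the same lengths ending at the start. The CG letters are the same on both strands.

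RefSeq promoters were matched for 3 of the 4 Zic genes, and 2 of them are printed on the gene's own strand up to the first annotated exon base, because the lists treated them differently. The Zic1 stretch is chr9:91365811-91366018 (minus strand) and the Zic5 stretch chr14:122465678-122465908 (minus strand).
Zic1 promoter: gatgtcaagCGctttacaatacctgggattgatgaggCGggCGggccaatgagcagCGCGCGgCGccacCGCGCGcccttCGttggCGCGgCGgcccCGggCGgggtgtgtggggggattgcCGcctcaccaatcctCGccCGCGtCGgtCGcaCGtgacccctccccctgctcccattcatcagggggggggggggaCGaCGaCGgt
Zic5 promoter: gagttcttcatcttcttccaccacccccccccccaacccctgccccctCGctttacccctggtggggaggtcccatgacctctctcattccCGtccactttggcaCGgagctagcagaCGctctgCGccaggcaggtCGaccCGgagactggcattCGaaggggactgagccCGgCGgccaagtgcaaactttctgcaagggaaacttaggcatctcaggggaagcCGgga
The Zic1 promoter stretch held 26 CpG in 208 bp, a number reached by 5.99% of promoters over that length, and no list had a peak on it. The nearest was an H3K27ac peak of E15.5, 421 bp away inside the gene. The Zic5 stretch held 11 CpG in 231 bp (34.4% of promoters reached that number), and 152 of its bases lay under an H3K27me3 peak of E11.5 Ebf2-EGFP- cells, the only one of the 8 lists with a peak there.

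Within 5 kb of the Zic starts, the lists of Ebf2-EGFP+ cells held H3K27ac, though not near every start at every stage. The list of Ebf2-EGFP- cells held H3K27me3 there. No H3K27ac peak lay on a Zic TSS itself, and the closest began 25 bp past that of Zic2, at E13.5. H3K27ac peaks were listed near 3 of the 4 starts at E11.5 (Zic1, Zic2 and Zic4), where the list marked 49.9% of all protein-coding genes. They were listed near 4 of 4 at E13.5 (60.9% of all genes) and near 4 of 4 at E15.5 (52.3% of all genes). H3K27me3 was listed near 4 of 4 in the Ebf2-EGFP- cells, against 48.2% of all genes. These shares of all genes are high, and 4 genes with 3 separate windows are few, so the counts alone do not set the Zic genes apart. The counts also rest on narrow peaks and on the window. With peaks of at least 300 bp, H3K27me3 in Ebf2-EGFP- cells was left near 1 of the 4 and H3K27ac at E13.5 near 2, and with only the widest peaks of each list they were left near 0 and 1, and H3K27ac at E11.5 and at E15.5 near 0. With a window of 1 kb, H3K27ac was left near 2, 2 and 3 of the 4 at the 3 stages, and H3K27me3 in Ebf2-EGFP- cells near 3. Zic4 then had no peak in any list. The paper's RNA-seq placed Zic1 and Zic2 among genes lower in Ebf2-EGFP+ than in Ebf2-EGFP- cells at E11.5, and higher at E15.5. At E13.5 it classed both as unchanged. The paper describes both as expressed in progenitors of the septum and cortical hem. It also names Zic2 as a Cajal-Retzius marker in its single-cell data, with a level that rises as these neurons differentiate. The listed marks therefore do not show in which cells these genes were expressed.

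The H3K27me3 lists of Ebf2-EGFP+ cells held little at these genes. No Zic start was marked at E11.5 (4.92% of all genes were) or at E15.5 (1.06%). At E13.5 only Zic2 was marked, in a list that marked 9.31% of all genes. The H3K27ac list of Ebf2-EGFP- cells marked no Zic start and only 4.17% of all genes. That list holds 1386 peaks against 25793 to 102881 in the other H3K27ac lists and comes from 1 library, so the lack of a Zic peak in it cannot be told apart from its shortness. The same holds for the H3K27me3 lists of Ebf2-EGFP+ cells, which hold 1438 to 6721 peaks against 48963 in Ebf2-EGFP- cells.

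**Figure D1:**
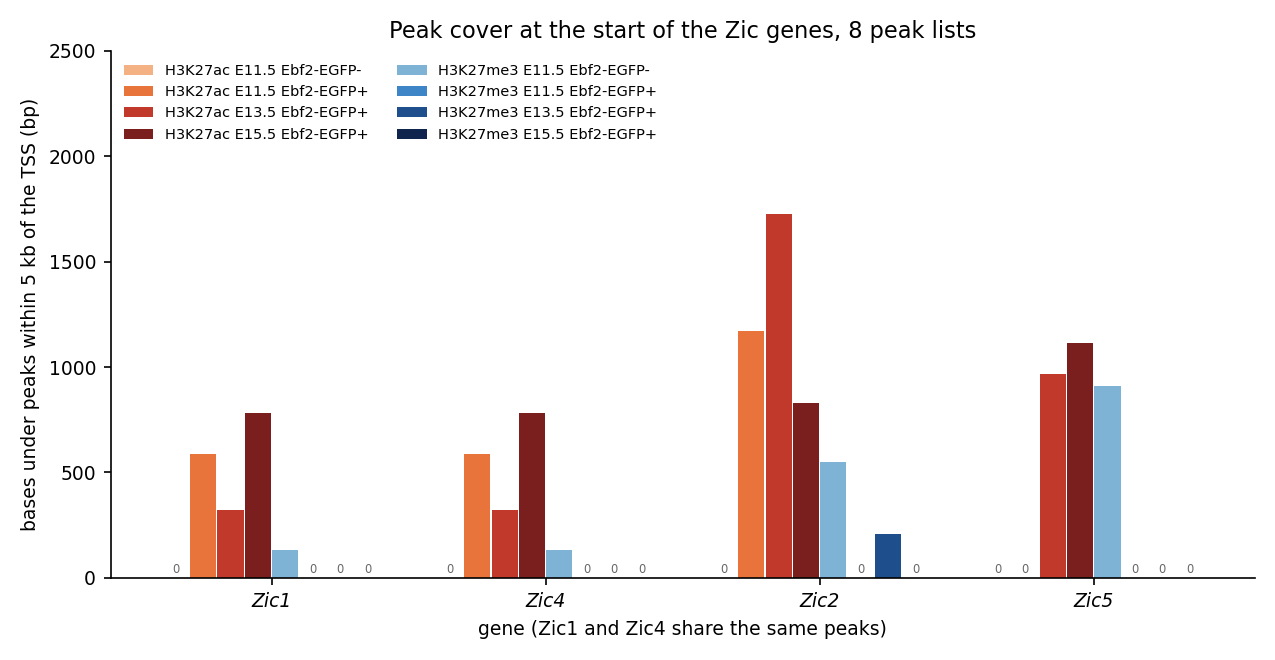
Bases under peaks within 5 kb of the TSS (vertical axis, bp) for each Zic gene (horizontal axis), with 1 bar for each of the 8 peak lists and 0 printed where a list has no peak. Zic2 has the tallest bar, 1724 bp of H3K27ac at E13.5, and Zic5 has H3K27ac bars at E13.5 and E15.5 but none at E11.5.

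The bases under peaks in the 10 kb around the start were counted next, with the window shared by Zic1 and Zic4 taken once. The median over the 3 windows was 588 bp (range 0 to 1171 bp) of H3K27ac at E11.5 in Ebf2-EGFP+ cells, against 0 over all genes. It was 965 bp (323 to 1724 bp) against 176 bp at E13.5, and 829 bp (784 to 1115 bp) against 194 bp at E15.5. For H3K27me3 in Ebf2-EGFP- cells it was 550 bp (130 to 912 bp) against 0. The medians of 0 over all genes follow from lists that marked only 49.9% and 48.2% of them. Widths are compared within a list only, since the lists differ in length and median peak width.

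Zic2, required for the forebrain midline, had the most H3K27ac of the 4 at E11.5 and E13.5. At E11.5 its start had 4 peaks covering 1171 bp, at E13.5 3 peaks covering 1724 bp, and at E15.5 3 peaks covering 829 bp. As many bases or more were covered at 2.37%, 0.470% and 19.4% of all genes in these lists. The E13.5 value came mostly from 1 peak of 1266 bp over the first coding part of the gene (chr14:122475460-122476725), a width reached by 0.192% of the peaks in that list.

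Zic2 was also the only one of the 4 genes with H3K27me3 in Ebf2-EGFP+ cells. A peak of 207 bp (chr14:122475896-122476102, in coding sequence 461 bp past the TSS) was listed at E13.5 and lay wholly under the 1266 bp H3K27ac peak of the same cells. Both marks at E13.5 were listed near 8.39% of all genes. In Ebf2-EGFP- cells Zic2 had 2 H3K27me3 peaks, 253 bp wide at 399 bp upstream and 297 bp wide at 3.26 kb downstream, covering 550 bp (9.17% of genes had as much). The 2 H3K27me3 lists thus marked different stretches of Zic2, with no base in common. H3K27me3 both in the Ebf2-EGFP- cells and in the E13.5 Ebf2-EGFP+ cells was listed near 6.95% of all genes. A list from sorted cells pools them, so both marks on the same stretch may come from the same or from different cells.

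Zic5, the partner of Zic2, had no H3K27ac peak near its start at E11.5, whereas the E13.5 list had 4 and the E15.5 list 2. H3K27ac at E13.5 and E15.5 but not at E11.5 was listed near 8.15% of all genes. The covered length was 965 bp at E13.5 (4.64% of genes had as much) and 1115 bp at E15.5 (10.2%). The nearest E11.5 peak was 142 bp wide and lay 8.77 kb upstream, next to Zic2. At E13.5 the peaks were 150, 343 and 280 bp wide at 1.39, 2.03 and 3.57 kb downstream, inside the gene, and 192 bp wide at 2.89 kb upstream. At E15.5 an 852 bp peak lay in coding exon sequence, 861 bp past the TSS, with a second of 263 bp behind it.

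Zic5 carried the widest H3K27me3 cover of the 4 in Ebf2-EGFP- cells. There were 3 peaks of 265, 467 and 180 bp, the first lying on the TSS itself, which together covered 912 bp, a length reached by 1.63% of all genes. The 852 bp H3K27ac peak of E15.5 overlapped both the 467 bp and the 180 bp peak, but not the 265 bp peak on the TSS. No H3K27ac list had a peak on that stretch, of which 152 bases are part of the Zic5 promoter printed above.

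Zic1, expressed in the medial telencephalon and the meninges, and Zic4 had narrower cover. Their shared windows held 1 H3K27ac peak of 588 bp at E11.5, 2 of 128 and 195 bp at E13.5, and 2 of 542 and 242 bp at E15.5. The covered 588, 323 and 784 bp were reached by 15.6%, 34.4% and 21.1% of all genes. In Ebf2-EGFP- cells there was 1 H3K27me3 peak of 130 bp, which 47.9% of genes reached, and it lay under the E11.5 and E13.5 H3K27ac peaks in the Zic1 coding exon (the first sequence above). None of these peaks lay on the Zic1 TSS. The closest, of E15.5, began 420 bp inside the gene.

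The Zic4 transcripts start in 12 places, from the outermost one up to 19997 bp further in. At the innermost a second group of peaks was found 607 bp upstream of its start. It held H3K27ac peaks of 343 bp at E11.5, 188 bp at E13.5 and 396 bp at E15.5, and an H3K27me3 peak of 226 bp in Ebf2-EGFP- cells (the second sequence above). This stretch belongs to Zic4 alone, whereas the peaks counted at the outermost Zic4 start lie in Zic1. With all transcript starts, Zic4 had 3 H3K27ac peaks at E11.5 and 3 H3K27me3 peaks in Ebf2-EGFP- cells in place of 1 each.

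Near the edge of the 5 kb window, the outermost peak counted was that at 3.57 kb from Zic5. The closest left out were H3K27ac peaks of E13.5 at 5.86 kb from Zic2 and at 6.68 and 7.01 kb from Zic4.

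H3K27ac at all 3 stages in Ebf2-EGFP+ cells was listed near 3 of the 4 genes (Zic1, Zic2 and Zic4), against 33.1% of all genes. The same 3 also had H3K27me3 in Ebf2-EGFP- cells, a combination found at 25.3% of all genes. The full pattern over the 8 lists that Zic1 and Zic4 showed was shared by 3785 other genes (17.3%), that of Zic2 by 659 and that of Zic5 by 783 (3.57%).

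**Figure D2:**
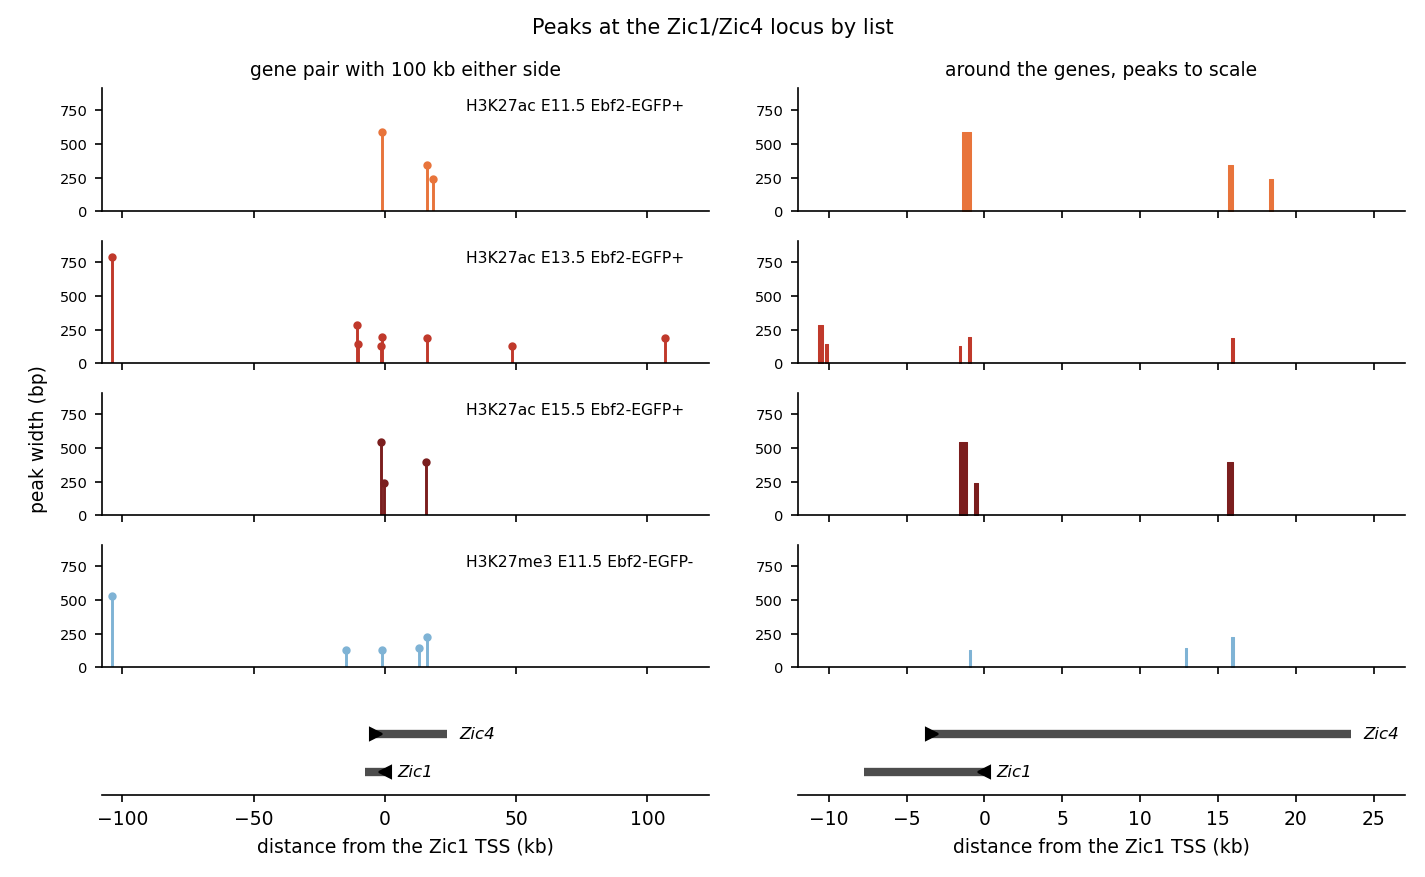
Peaks of each list at the Zic1/Zic4 locus by distance from the Zic1 TSS (horizontal axis, kb) and width (vertical axis, bp). Left, the pair with flanks, 1 stem per peak; right, the genes, peaks to scale; bars below are the genes, arrowheads their starts, and lists without a peak are left out. Peaks of 4 lists stack at 15.9 kb, inside Zic4.

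Across the Zic1/Zic4 locus with flanks (chr9:91258058-91489348, 231 kb) 3 H3K27ac peaks were listed for E11.5 Ebf2-EGFP+ cells, 8 for E13.5 and 3 for E15.5. The H3K27me3 list of Ebf2-EGFP- cells had 5. The other 4 lists had none. The densities of 1.30, 3.46, 1.30 and 2.16 peaks per 100 kb stood beside 1.36, 3.77, 0.946 and 1.80 for the same lists over the genome, ratios of 0.954, 0.917, 1.37 and 1.20. As many peaks or more were found around 71.7%, 72.6%, 66.4% and 62.2% of genes when counted for Zic1.

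The widest peaks there were of 588 bp at E11.5 and 542 bp at E15.5, both in the Zic1 coding exon. At E13.5 the widest was instead a peak of 793 bp at chr9:91261278-91262070, between genes and 100 kb upstream of Zic4, a width reached by 1.02% of that list. The widest H3K27me3 peak of Ebf2-EGFP- cells, 529 bp (chr9:91261447-91261975; 3.30% of its list was as wide), lay wholly within it.

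**Figure D3:**
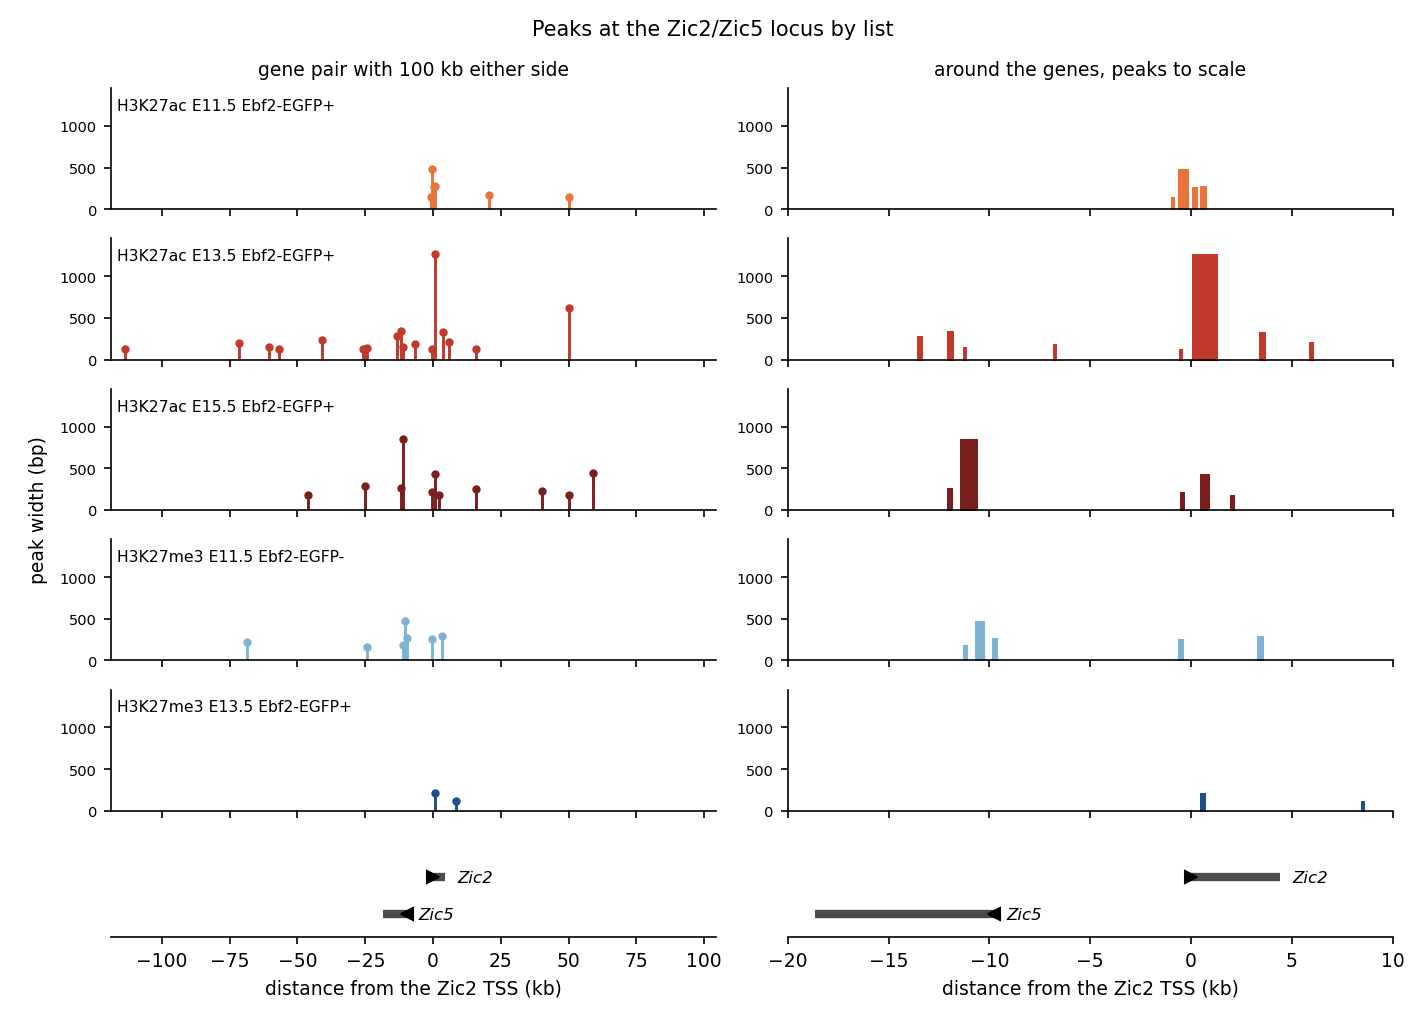
Peaks of each list at the Zic2/Zic5 locus by distance from the Zic2 TSS (horizontal axis, kb) and width (vertical axis, bp). Left, the pair with flanks, 1 stem per peak; right, the genes, peaks to scale; bars below are the genes, arrowheads their starts, and lists without a peak are left out. The 1266 bp peak of E13.5 stands at Zic2, the 852 bp peak of E15.5 at Zic5.

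The Zic2/Zic5 locus (chr14:122356795-122579852, 223 kb) was denser. The E11.5 Ebf2-EGFP+ list gave 6 H3K27ac peaks, the E13.5 list 18 and the E15.5 list 11. H3K27me3 had 7 peaks in Ebf2-EGFP- cells and 2 in E13.5 Ebf2-EGFP+ cells. Per 100 kb these were 2.69, 8.07, 4.93, 3.14 and 0.897, which is 1.98, 2.14, 5.21, 1.74 and 3.63 times the genome density of each list. Regions around genes hold more peaks than the genome at large, and beside other genes the locus stood less apart. As many peaks or more lay around 48.7%, 42.6%, 13.9%, 49.2% and 32.3% of genes when counted for Zic2.

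The widest peaks of this locus were those at the genes themselves, the 1266 bp peak at Zic2 in E13.5 cells, the 852 bp peak at Zic5 in E15.5 cells, and at E11.5 a peak of 485 bp (chr14:122474788-122475272) just upstream of Zic2, a width reached by 9.65% of its list.

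Of the 11 H3K27ac peaks at E15.5 in the Zic2/Zic5 locus, 5 lay within 5 kb of a Zic TSS and 6 farther out. Among these 6, a 285 bp peak lay in an intron of the non-coding gene Gm5089, 15.1 kb from Zic5, and a 449 bp peak in an intron of Pcca, 58.8 kb from Zic2. Of the 18 peaks at E13.5, 11 lay farther out, and 7 of the 18 met a peak of E15.5 (38.9% of the E13.5 peaks and, with 7 of 11, 63.6% of those at E15.5). Over the genome, 11.2% of the E13.5 peaks met one of E15.5 and 39.4% of the E15.5 peaks met one of E13.5, shares that include peaks far from any gene.

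A further H3K27ac site lay between genes 49997 bp past the Zic2 TSS (chr14:122525363-122525502), where the 3 Ebf2-EGFP+ lists met. The E11.5 peak was 142 bp wide, the E13.5 peak 616 bp and the E15.5 peak 184 bp, and no H3K27me3 list had a peak on it. It was the only one of the 6 shared sites at these loci with acetylation alone.

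**Figure D4:**
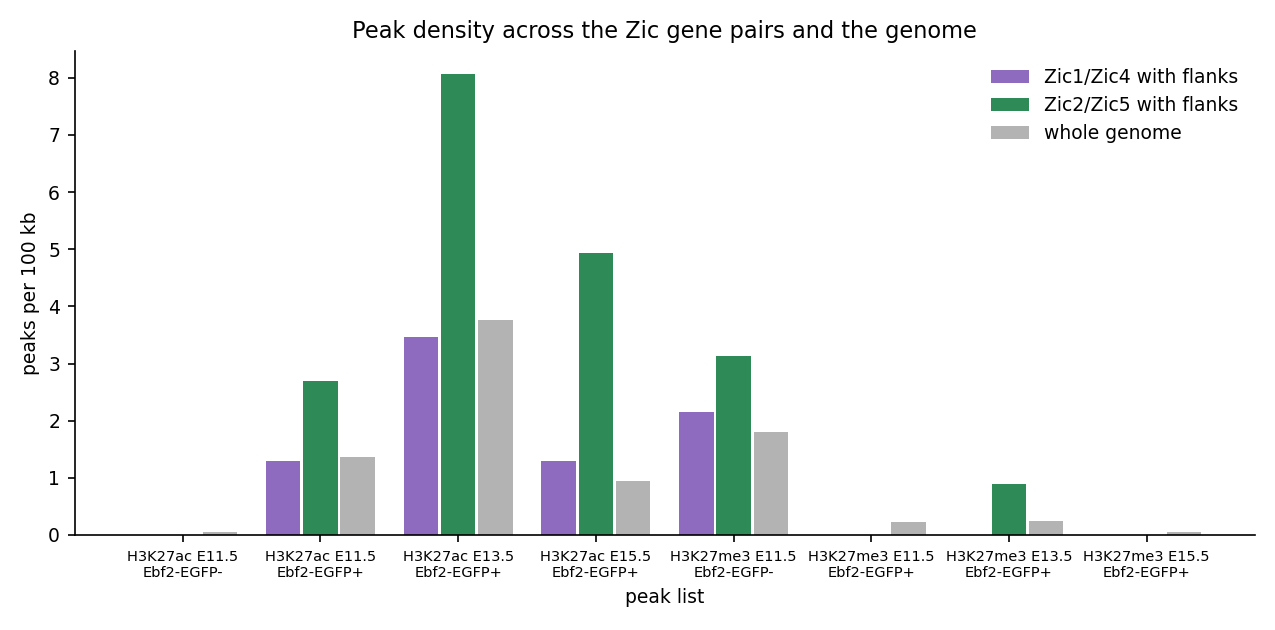
Peaks per 100 kb (vertical axis) in each of the 8 lists (horizontal axis) for both Zic loci with flanks and for the whole genome. At E15.5 H3K27ac the Zic2/Zic5 bar is 4.93, the Zic1/Zic4 bar 1.30 and the genome bar 0.946.

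Sites where peaks of several lists met were then located. At least 3 lists met at 6 sites, 2 in the Zic1/Zic4 locus and 4 in the Zic2/Zic5 locus, or 1.32 sites per 100 kb against 0.557 over the genome. This counts lists of either mark, and the genome value includes stretches without genes, where peaks are sparser. At least 4 lists met at 3 of them. These were the Zic4 intron site, a stretch 498 bp upstream of Zic2 in the exon of 2610035F20Rik (chr14:122474882-122474968), and the coding stretch of Zic2 that the E13.5 H3K27me3 peak covered. At the first 2 of these, H3K27ac of all 3 stages met H3K27me3 of Ebf2-EGFP- cells.

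The 12 H3K27me3 peaks of Ebf2-EGFP- cells in the 2 loci were followed into Ebf2-EGFP+ cells. E11.5 H3K27ac overlapped 3 of the 12, where it overlapped 21.7% of 48962 such peaks over the genome. E13.5 H3K27ac overlapped 6 (37.7% over the genome), and E15.5 H3K27ac 4 (18.4%). In all 7 of 12 (58.3%) met H3K27ac at some stage, against 49.1% over the genome. These 12 peaks are too few to set the loci apart. The 5 that met none included the peak on the Zic5 TSS.

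Genes with the cover most like that of a Zic gene were searched over the 8 lists, by the summed difference of log2(1 + bases covered) near the start. Nearest to Zic1 and Zic4 were Zfp266 (distance 0.318), Tmem199 (0.355) and Poldip2 (0.355), the last pair sharing their peaks. Nearest to Zic2 were Kcnc1 (1.02), a potassium channel gene, R3hdm4 (1.56) and Pitpnm2 (1.60). Nearest to Zic5 were Stk19 (0.479), its neighbour Dxo (0.513) and Nol9 (0.895). Each distance is over 8 lists, and these lists differ in length.

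Among 25 genes of the cortical hem and medial patterning, H3K27ac in Ebf2-EGFP+ cells was listed near 16, then 24, then 17 over the 3 stages (64.0%, 96.0% and 68.0%, against the 49.9%, 60.9% and 52.3% of all genes). H3K27me3 was listed near 18 in Ebf2-EGFP- cells (72.0% against 48.2%) and near 8 in E13.5 Ebf2-EGFP+ cells (32.0% against 9.31%). The median cover was 170, 640 and 261 bp for the 3 H3K27ac stages. The genes with the pattern of Zic1 and Zic4 in all 8 lists were the homeobox genes Emx1, Lhx1, Lhx5 and Lhx9, or 4 of 25 where 17.3% of all genes had it. Those with the pattern of Zic2 were Emx2, a regulator of medial cortex, and Gdf7, a secreted signal of the roof plate. Those with the pattern of Zic5 were Lmx1a, a hem factor, Msx1 and Otx2. Over all 21938 genes, 659 others shared the pattern of Zic2 and 783 (3.57%) that of Zic5. The matches to these patterns among the 25 genes were few and were not tested. Markers of other cells had the patterns of the Zic genes too. The progenitor genes Hes1, Nes and Vim and the microglial gene Aif1 had that of Zic1 and Zic4. The meningeal genes Foxd1 and Foxc2 had that of Zic2, and the meningeal gene Aldh1a2 that of Zic5. Ebf3, a marker of preplate and Cajal-Retzius neurons, also had that of Zic2. Lhx1 and Lhx5, named above with the pattern of Zic1 and Zic4, are markers of these neurons too.

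Emx2 had 1786 bp of H3K27ac at E11.5, 356 bp at E13.5 and 2189 bp at E15.5, 473 bp of H3K27me3 in Ebf2-EGFP- cells and 178 bp in E13.5 Ebf2-EGFP+ cells. Lmx1a had, like Zic5, no H3K27ac at E11.5, then 657 bp at E13.5 and 461 bp at E15.5, beside 816 bp of H3K27me3 in Ebf2-EGFP- cells.

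Of the 6 Gli and Glis genes, the closest relatives of the Zic family, H3K27ac was listed near 4, 5 and 4 at the 3 stages and H3K27me3 near 6 of 6 in Ebf2-EGFP- cells. The same lists marked 49.9%, 60.9% and 52.3% of all genes for H3K27ac and 48.2% for H3K27me3. Glis1 had the pattern of Zic1 and Zic4, and Gli2, an effector of hedgehog signalling, that of Zic5. Gli1, a hedgehog target, had both marks at E13.5, as Zic2 did, but no H3K27ac at E11.5 or E15.5.

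**Figure D5:**
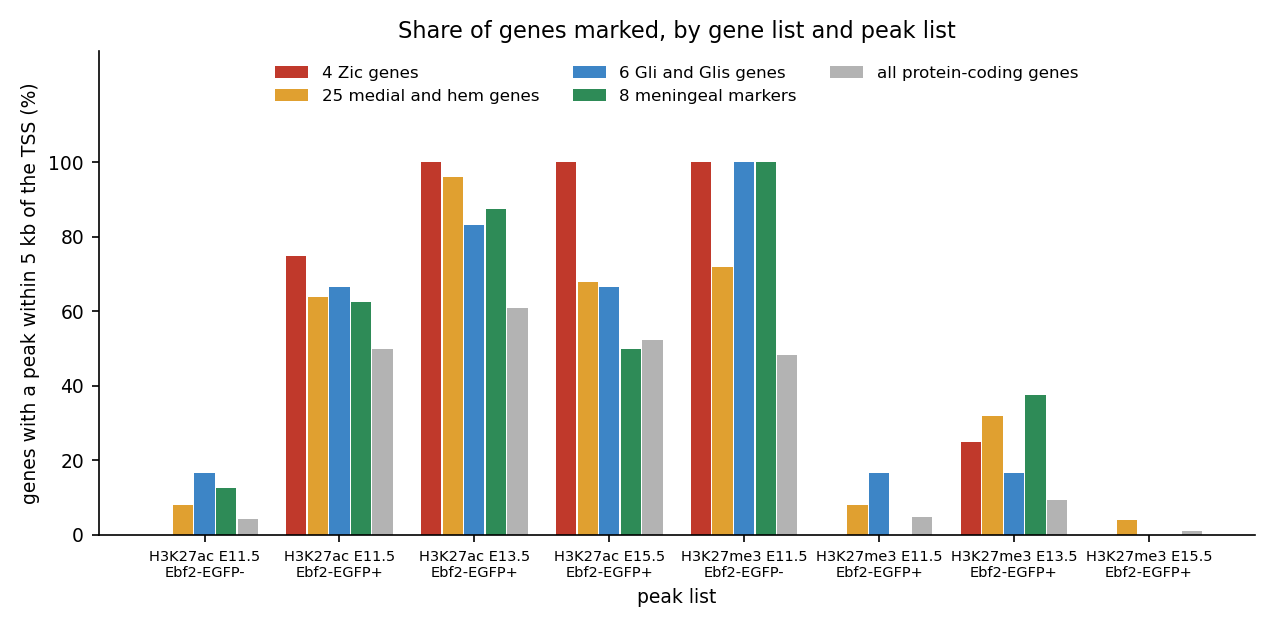
Share of genes with a peak within 5 kb of the TSS (vertical axis, percent) in each of the 8 lists (horizontal axis) for the 4 Zic genes, 25 medial and hem genes, 6 Gli and Glis genes, 8 meningeal markers and all protein-coding genes. In the H3K27me3 list of Ebf2-EGFP- cells the Zic, Gli and Glis and meningeal bars reach 100% and all genes 48.2%.

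Markers of the cells in each sort were looked up beside these results, where all genes had H3K27ac at 49.9%, 60.9% and 52.3% over the 3 Ebf2-EGFP+ stages and 4.17% in Ebf2-EGFP- cells, and H3K27me3 at 48.2% in Ebf2-EGFP- cells. Of 11 markers of preplate and Cajal-Retzius neurons, H3K27ac was listed near 9, 10 and 8 at the 3 Ebf2-EGFP+ stages in order. Of 6 progenitor markers it was listed near 5, 6 and 4 in the same cells, and near 0 of 6 in Ebf2-EGFP- cells, where it was listed near 3 of the 11 neuronal markers. The short H3K27ac list thus does not show those cells as progenitors. By the share of genes marked, the Ebf2-EGFP+ lists do not show their cells as neurons either. They marked progenitor markers at 83.3%, 100% and 66.7% and neuronal markers at 81.8%, 90.9% and 72.7% over the 3 stages. The median cover was 429, 528 and 426 bp at progenitor and 542, 533 and 933 bp at neuronal markers, a difference that was not tested. Of 8 meningeal markers, a tissue that uses Zic genes too, H3K27ac was listed near 5, 7 and 4 in Ebf2-EGFP+ cells. H3K27me3 was listed near 8 of 8 in Ebf2-EGFP- cells. In the same list it was near 7 of 11 neuronal and 4 of 6 progenitor markers, like shares of 63.6% and 66.7%. It was near 2 of 5 blood vessel, 1 of 5 blood and microglia, and 4 of 6 GABAergic markers. Of 5 blood vessel markers H3K27ac was listed near 1, 3 and 0, of 5 blood and microglia markers near 1, 3 and 2, and of 6 GABAergic markers near 4, 5 and 3. The part of meningeal or other cells in the Zic peaks was not tested, and fewer cells with a mark and a weaker mark in each cell cannot be told apart.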

How the data were processed

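H3K27ac and H3K27me3 were measured by ChIP-seq in sorted cortical cells. The authors aligned reads on mm10 by Bowtie (1.1.2, per the submitters' processing notes) with at most 3 mismatches, and MACS was run with a p of 1e-05. Its version, the use of the input and the pooling of replicates are not given in the sources used here. The lists that the authors deposited hold peak positions and a score, which was 0 for every peak, so no height or significance could be used. Starts were read as 0-based and are printed 1-based.

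Peaks were compared with GENCODE M21 by overlap of at least 1 bp, in Python 3.11.15 with numpy 2.4.6. The functions were tested on simulated intervals. Genes were represented by their outermost start. Sequences were read with samtools 1.23.1 and are from RefSeq on GRCm38.

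The members, gene lists and comparisons were chosen with earlier results of these data known. Named were the Zic genes with their peaks, the widest peak of each list per locus, sites where at least 3 lists meet, the 3 genes most alike per member, and genes of the medial and of the Gli and Glis list with a member's pattern. Gli1, the marker genes with a member's pattern, and the peaks in Gm5089 and Pcca, were picked after their values were seen. The alternatives were another window, flank or start, merged peaks, and wider peaks.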

Additional observations from a re-analysis of the deposited data

How the results depend on the processing

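No paired analysis was possible because each group has 1 peak list and no test was run. Counts of marked Zic genes and of peaks across both loci not named here stayed within 1.5 times under each alternative, which included the start of any annotated transcript, flanks of 50 kb and peaks within 1 kb merged. Of 32 values per gene and list, 9 moved further than that with a 1 kb window, 2 with any transcript start, 13 with peaks of at least 300 bp and 15 with the widest peaks. Many of the 32 were 0, which a narrower window or a width filter cannot change, so these counts understate the dependence. With the widest peaks, the only value above 0 that stayed was that of Zic2 for H3K27me3 at E13.5. A window of 1 kb left 2, 2 and 3 of 4 Zic genes with H3K27ac at the 3 Ebf2-EGFP+ stages. The same lists then marked 40.6%, 44.5% and 46.0% of all genes. H3K27me3 in E11.5 Ebf2-EGFP- cells was left near 3 (36.2% of all genes). Widths mattered more. With peaks of at least 300 bp, marked Zic genes fell to 2 for H3K27ac at E13.5 (23.0% of all genes), 1 for H3K27me3 in E11.5 Ebf2-EGFP- cells (16.8% of all genes then) and 0 for H3K27me3 at E13.5 (0.620%). Peaks across both loci became 3 of 9, 5 of 26 and 5 of 14 for the H3K27ac stages of Ebf2-EGFP+ cells in order, 2 of 12 for H3K27me3 in Ebf2-EGFP- cells and 0 of 2 at E13.5. With only the widest peaks, as many as in the shortest list of the mark (1386 and 1438), marked genes were 0, 1 (Zic2) and 0 for the H3K27ac stages (6.25%, 1.39% and 6.87% of all genes) and 0 for H3K27me3 in Ebf2-EGFP- cells. Peaks across both loci were then 0, 2 and 0, 0 for H3K27me3 in Ebf2-EGFP- cells and 1 at E13.5. Of the H3K27me3 peaks in Ebf2-EGFP- cells that met H3K27ac, 2 were left in place of 7 at 300 bp and 0 with the widest peaks. These 2 settings and a reciprocal overlap of at least 50% were chosen for this count after seeing the data. Both width filters keep fewer peaks by construction. Without read counts or scores, the lists cannot be brought to a common depth.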
